A study of Homo sapiens with 13 samples.

Results

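The chromosome 19 zinc finger genes were taken as the symbols ZNF followed by digits and at most 1 letter whose locus lies on chromosome 19 in the table of the INK128 experiment, and they were matched by symbol to the table of the Silvestrol experiment. The rule found 202 genes among the 13121 symbols of the first table, and 189 of them were present among the 24875 symbols of the second. Of these 189, 151 passed the filter on low values that was used for all tests at 2 hours, in which 10604 genes were tested. A further 9 were listed at an RPKM (reads scaled to transcript length and library size) of 0 in a library the filter uses, and 29 lay below a minimum RPKM. Ribosome footprint (RF) reads were absent for 5 members, and 177 had reads in every one of the 9 libraries. The comparison list was the 199 ZNF symbols of the same form on other chromosomes, of which 160 passed the filter.

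Ribosome profiling, which sequences the mRNA fragments protected by ribosomes, was done on MDA-MB-231, a triple-negative breast cancer cell line. In the Silvestrol experiment, cells of passage 3 were left untreated or received the DMSO vehicle or 25 nM of Silvestrol, an inhibitor of the helicase eIF4A, for 1 or 2 hours, with 1 RF library each, and the 2 hour pair was repeated at passage 4. mRNA was sequenced once per treatment, in passage 3 cells at 2 hours, and 1 label field calls the control mRNA cells untreated although the title names DMSO. The control mRNA column of the deposited table names no treatment and was taken as DMSO because the other mRNA column names Silvestrol, so every mRNA and TE change rests on that match. For the passage 3 Silvestrol RF library at 2 hours, 1 label field gives 1 hour although the title gives 2. In the INK128 experiment, passage 3 cells received DMSO or 200 nM of INK128, an inhibitor of the kinase mTOR, for 2 hours, with 1 RF and 1 total RNA library per treatment.

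Zinc finger proteins of the C2H2 type bind DNA through tandem fingers, each a short fold held by a zinc ion and joined to the next by a conserved linker. Most of those encoded on chromosome 19 also carry a KRAB domain, which recruits TRIM28 and, through it, the histone methyltransferase SETDB1 and HP1 proteins, so that bound sites, many of them in transposable elements, are silenced. The genes arose by tandem duplication, and neighbours therefore share long stretches of sequence.

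To show what the members share, a stretch of 30 coding bases across a finger linker is printed for ZNF146 and ZNF45, which had the lowest RF changes at 2 hours, and for ZNF791 and ZNF844, the members called higher. Capitals mark the 18 bases that code for the linker and the first residue of the following finger, and the lower case letters are the last 12 bases of the finger before it.
ZNF146: cagaaaattcacACTGGAGAAAAACCTTTT
ZNF45: cagagagttcacACTGGAGAGAAACCATAT
ZNF791: gaaagaactcacACTGGAGAGAAACCCTAT
ZNF844: gaaagaactcacACTGGAGAGAAGCCTTAT
These stretches lie within coding exons of GRCh37 (hg19) at chr19:36727613-36727642 on the plus strand, chr19:44418004-44418033 on the minus strand, chr19:12739046-12739075 on the plus strand and chr19:12186665-12186694 on the plus strand. In GENCODE 44 lifted to GRCh37, the transcripts span chr19:36706008-36729670 for ZNF146, chr19:44416776-44439434 for ZNF45, chr19:12721734-12744648 for ZNF791 and chr19:12175546-12192380 for ZNF844. The same 30 bases were found in the coding sequence of 0 other genes for ZNF146, 1 for ZNF45, 7 for ZNF791 and 2 for ZNF844, among 19761 coding sequences searched. Linkers of this form numbered 5 in ZNF146, 14 in ZNF45, 12 in ZNF791 and 3 in ZNF844. The linker printed for each gene is the one shared with the most genes, so these counts are the highest over its linkers. Over the whole coding sequence of ZNF146, 1.30% of the stretches of 30 bases also occurred in another gene.

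Of the 202 members, 193 were found in that annotation, and in all 193 the annotated transcript overlapped the deposited locus. Their proteins had a median of 12 finger motifs and 576 residues, and 161 of them (83.4%) held a KRAB-A pattern, compared with 73 of 192 (38.0%) for ZNF genes on other chromosomes. The pattern was a sequence expression adjusted on known KRAB genes, and its call for a single gene may be wrong. A median of 7.83% of the 30-base windows of a member's coding sequence also occurred in another gene, against 0.360% for the other ZNF genes, and 1 such window was shared by 51 genes. Overlapping gene models count as other genes here. The authors counted only uniquely mapped reads, so footprints that lie wholly within shared sequence were not counted.

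Counted reads ranged from 2652423 to 50315607 per library of the Silvestrol experiment. The members took between 0.157% and 0.193% of the RF reads in every library, and 0.215% of the DMSO and 0.323% of the Silvestrol mRNA reads. The median tested member had 161 RF reads in the DMSO and 85 in the Silvestrol library of passage 3 at 2 hours, and 42 and 21 in those of passage 4, where 23 of the 151 had under 10 Silvestrol reads. Of the markers expected of this line, VIM, CD44, KRT18 and AXL were detected, and SPARC was low, with 0.494 mRNA RPKM in the DMSO library. ESR1 and PGR had RF RPKM values of 0 in the DMSO library of passage 3 at 2 hours, as did CDH1. GATA3 was present at 8.45 RF RPKM in the same library, and PTPRC, PECAM1 and ALB, markers of other cell types, were at 0.00731 RF RPKM or listed at 0. PECAM1 mRNA was at 0.863 RPKM in the DMSO library, above that of SPARC.

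The members were translated at low levels. Over the 151 tested, the median RF RPKM was 3.53 in the DMSO library of passage 3 at 2 hours, compared with 20.5 over all genes tested. Median mRNA RPKM was 1.81 for the members and 11.9 for all genes tested. The 5 with the highest mean RF RPKM in the DMSO libraries at 2 hours were ZNF428 (65.5), ZNF146, ZNF121 (40.4), ZNF460 (36.2) and ZNF580 (36.0), of which the KRAB-A pattern was found in ZNF460 alone. ZNF428 had 68.6 and 62.4 RF RPKM with DMSO in passages 3 and 4 and lay above the other 4 in both. The order of ZNF146, ZNF121, ZNF460 and ZNF580 was not the same in the 2 passages, ZNF580 having 48.6 and 23.4.

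ZNF146, also known as OZF, encodes a short protein made almost only of fingers (10 motifs in 292 residues) and had no KRAB-A pattern. Its RF RPKM was 51.6 in untreated cells, 45.1 with DMSO for 1 hour, and 43.5 and 42.0 with DMSO for 2 hours in passages 3 and 4. With Silvestrol it was 9.18 at 1 hour, and 3.12 and 7.10 at 2 hours. All 3 Silvestrol libraries lay below all 4 control libraries, and the footprints that remained at 2 hours were 7.18% and 16.9% of those with DMSO in the same passage. The read numbers behind these values were 968 against 43 in passage 3 and 261 against 21 in passage 4. mRNA went the other way, at 12.5 RPKM (2863 reads) with DMSO and 28.1 RPKM (3225 reads) in the Silvestrol library.

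The log2 change of ZNF146 RF reads at 2 hours was -2.84 ± 0.40 (SE, n = 2 libraries per treatment), with an adjusted p of 0.0251 by edgeR's quasi-likelihood test over all genes tested. Blocked by passage, the change was -2.96 ± 0.21 and the edgeR adjusted p was 1.38e-40. It was the lowest of the 151 members and had rank 11 from the lowest of the 10604 genes. The edgeR adjusted p was 0.146 without the Silvestrol library of passage 3 and 0.0976 without that of passage 4, fits in which 1 library stands for the treatment. Among the 189 members, ZNF146 had rank 3 by RF RPKM with DMSO and rank 81 with Silvestrol in passage 3.

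**Figure D1:**
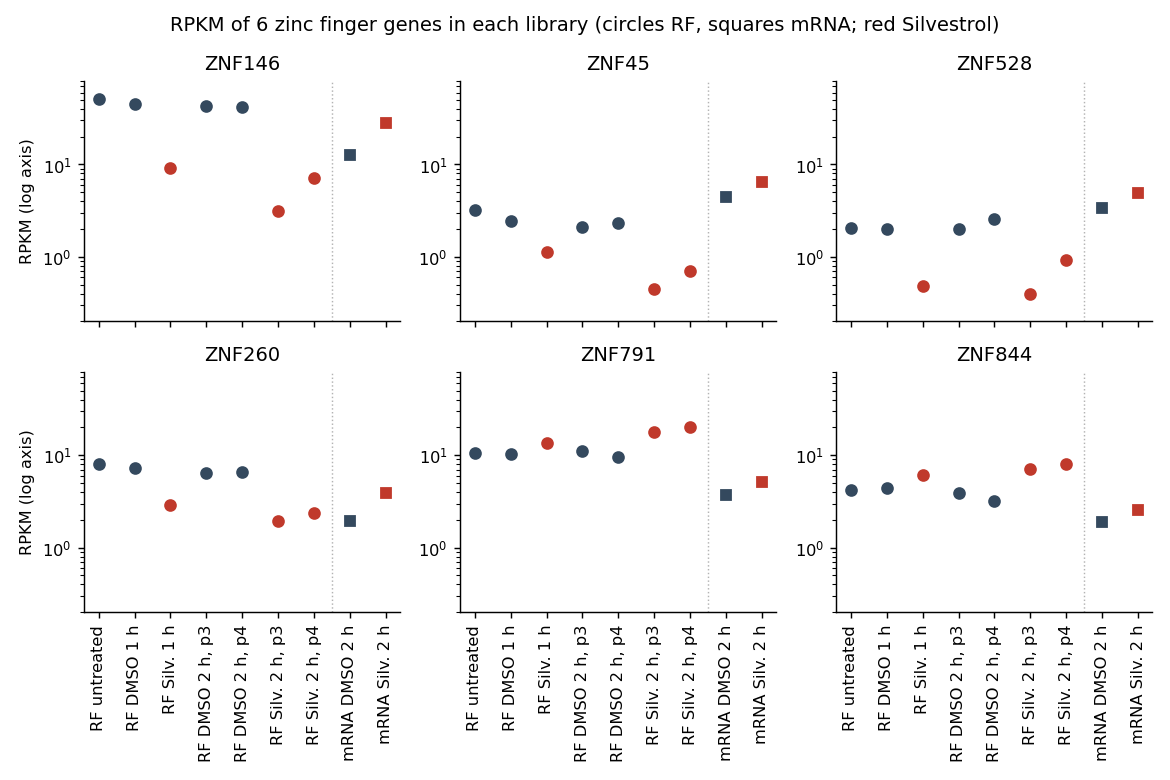
RPKM on a log axis in each of the 9 libraries of the Silvestrol experiment, for 4 members with low RF changes at 2 hours and the 2 members called higher. Circles are RF and squares mRNA libraries, red marks Silvestrol and p3 and p4 are passages. For ZNF146 the Silvestrol circles sit at 3.12 to 9.18 RPKM, below control circles of 42.0 to 51.6, while its mRNA square is higher with Silvestrol.

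Other members with fewer footprints followed ZNF146 at a distance. ZNF45, a KRAB zinc finger gene, had RF RPKM values of 3.19 untreated, 2.46 with DMSO at 1 hour, and 2.12 and 2.35 with DMSO at 2 hours, compared with 1.12 with Silvestrol at 1 hour and 0.448 and 0.706 at 2 hours. ZNF528, also of the KRAB class, had 1.98 and 2.55 with DMSO and 0.395 and 0.929 with Silvestrol at 2 hours. ZNF260, which like ZNF146 consists mainly of fingers and had no KRAB-A pattern, had 6.39 and 6.57 with DMSO and 1.93 and 2.37 with Silvestrol. In each of the 3 genes the Silvestrol libraries at 2 hours lay below both DMSO libraries. Log2 RF changes in the edgeR fit were -1.93 ± 0.41 for ZNF45, -1.81 ± 0.53 for ZNF528 and -1.40 ± 0.31 for ZNF260, and none passed the test (edgeR adjusted p of 0.0501, 0.0906 and 0.0528). The change of ZNF528 was -1.14 without the Silvestrol library of passage 3 and -2.30 without that of passage 4. With an offset that corrects for the counted length of each gene in each library, ZNF45 and ZNF260 passed (edgeR adjusted p of 0.0420 and 0.0378). All 3 passed in the fit blocked by passage, with edgeR adjusted p of 5.91e-06, 5.37e-05 and 1.10e-05. Reads were few in passage 4 with Silvestrol, at 5 for ZNF45, 6 for ZNF528 and 10 for ZNF260.

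The next members in this order, among those lower in both passages, were ZNF558, ZNF266, ZNF584, ZNF347, ZNF414 and ZNF542, with log2 RF changes from -1.31 to -0.85. None passed the test without the block. With it, edgeR called ZNF558, ZNF266, ZNF584, ZNF347 and ZNF414, and ZNF542 had an adjusted p of 0.0542. ZNF428, the most highly translated member, went from 68.6 and 62.4 RF RPKM to 38.2 and 33.1, and was called with the block at a log2 change of -0.75 ± 0.16 (edgeR adjusted p = 6.84e-06).

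Other members had more footprints with Silvestrol. ZNF791, a KRAB zinc finger gene, had 11.1 and 9.53 RF RPKM with DMSO and 17.9 and 20.3 with Silvestrol at 2 hours, and ZNF844 had 3.90 and 3.17 compared with 7.17 and 8.02. In both genes the 2 Silvestrol libraries at 2 hours lay above every control library, and the Silvestrol library at 1 hour lay between these and the controls. Their log2 changes were 1.00 ± 0.19 (edgeR adjusted p = 0.0417) and 1.26 ± 0.25 (edgeR adjusted p = 0.0457). In ZNF844, 96.3% of the coding 30-base windows also occurred in another annotated gene, so its count is uncertain, while the share was 9.30% in ZNF791. Both genes lost the call in each of the 4 fits that leave out 1 library, with edgeR adjusted p between 0.0515 and 0.259. ZNF844 also lost it with edgeR's filterByExpr in place of the RPKM minimums (edgeR adjusted p = 0.0501) and with a correction for counted length (edgeR adjusted p = 0.0514). A further 4 members had high RF changes in the same direction in both passages without passing the test, namely ZNF93 (log2 change 1.68 ± 0.48), which is known to bind LINE-1 elements, ZNF439 (1.33 ± 0.50), ZNF431 (1.29 ± 0.73) and ZNF221 (1.22 ± 0.44). In the fit with the block edgeR called all of them, although the passage 4 Silvestrol reads were 14, 9, 14 and 15. The log2 change of ZNF431 was 0.57 without the DMSO library of passage 3, 0.64 without the Silvestrol library of passage 4, 1.95 without the DMSO library of passage 4 and 1.86 without the Silvestrol library of passage 3.

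Over all tested members, edgeR called 1 lower and 2 higher at 2 hours, and without 1 library it called 0 (either Silvestrol library left out), 1 (DMSO of passage 3) or 2 (DMSO of passage 4). Over all genes tested the shares were 7.33% lower and 1.93% higher with all libraries kept, and those of the fits without 1 library are not given. With the passage as a block it called 14 members lower (9.27%) and 41 higher (27.2%), against 28.0% and 24.7% of all genes tested. ZNF genes on other chromosomes gave 32 lower and 44 higher of 160 in the same fit. The median log2 RF change of the members was 0.28, compared with 0.20 for the other ZNF genes and -0.02 for all genes tested. With the offset for counted length, the member median was 0.15 and the calls were 3 lower and 1 higher, while all genes tested had a median of -0.11 and 9.55% lower and 1.51% higher. By passage, centred on the median of all genes tested, the member medians were 0.30 and 0.35. Without centring, RF RPKM was higher with Silvestrol in both passages for 68 members and lower in both for 43. It moved differently in the 2 passages for 40. In passage 3 alone, 84 of the 151 members were higher, against 4178 of 10604 genes. In passage 4 alone, 92 were higher, against 4327 of 10531 genes. The range of the log2 changes ran from -2.84 to 1.68.

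**Figure D2:**
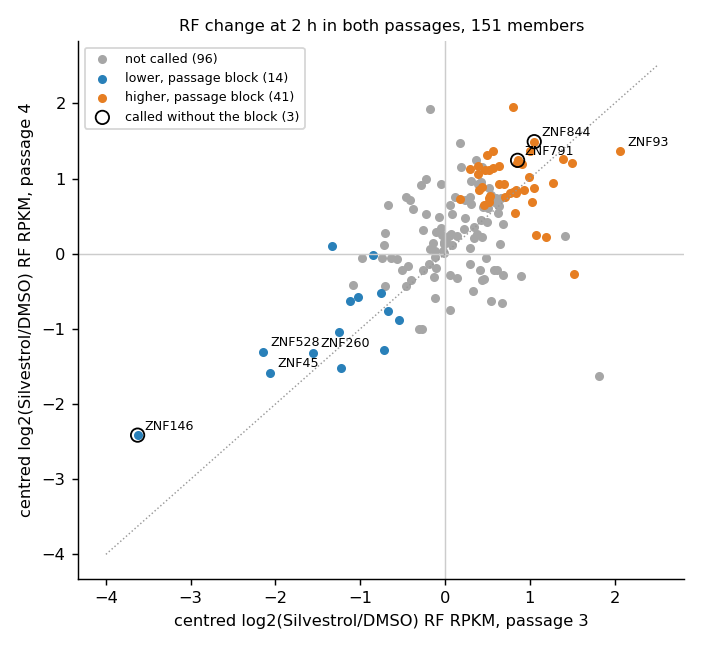
Log2 RF change at 2 hours of the 151 tested members in passage 3 (x axis) and passage 4 (y axis), each centred on the median of all genes tested. Blue and orange points are the 14 members called lower and the 41 called higher by edgeR with the passage as a block, rings mark the 3 called without it, and ZNF146 lies alone at the lower left.

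At 1 hour, with 1 library per treatment and therefore no test, 5 members lay more than 2-fold below and 4 more than 2-fold above the median change of all genes tested (3.31% and 2.65% of the members, against 4.86% and 0.614% of all genes tested). The lower ones were ZNF146, ZNF528, ZNF558, ZNF260 and ZNF444, and the higher ones ZNF69, ZNF439, ZNF90 and ZNF14. ZNF444, ZNF69, ZNF90 and ZNF14 are named here after their values were seen. The centred log2 change of ZNF146 at 1 hour was -2.11, and it went to -3.63 and -2.41 at 2 hours in passages 3 and 4. ZNF444 had 18.4 RF RPKM with DMSO and 7.53 with Silvestrol at 1 hour, and its centred change at 2 hours was -1.33 in passage 3 and 0.11 in passage 4. ZNF69 had 5 and 8 reads at 1 hour. The 1 hour change, which is from other libraries than those at 2 hours, was below 0 in all 14 members called lower at 2 hours with the block, and above 0 in 37 of the 41 called higher. Over all genes so called, the shares were 94.2% and 92.8%. The member median at 1 hour was 0.12 after centring.

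mRNA levels of the members were higher relative to other genes after 2 hours of Silvestrol, in 1 library per treatment and therefore without a test. The median log2 mRNA change, centred on all genes tested, was 0.74 for the members and 0.49 for ZNF genes on other chromosomes. Without centring, RPKM was higher with Silvestrol in 137 members and lower in 14, against 5573 and 5031 of all genes tested. Of the 160 ZNF genes on other chromosomes, 128 were higher. More than 2-fold above the median were 35 members (23.2%), against 3.95% of all genes tested, and 0 members were more than 2-fold below it, against 2.25%. With 0.5 added to each RPKM value, 16 members in place of 35 were past 2-fold, a setting for which no share over all genes is given. ZNF700 went from 2.31 to 8.18 RPKM, ZNF350 from 1.99 to 6.65 and ZNF136 from 1.30 to 4.07, the largest ratios, named after their values were seen. ZNF350, also called ZBRK1, is a repressor known as a partner of BRCA1. These 3 rest on 234 to 524 reads per library.

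The level of mRNA differed between the members and other genes, and its part in the mRNA change was not tested. Across the 10604 genes, DMSO mRNA RPKM and the mRNA change had a Spearman rho of -0.42, and of -0.45 across the 151 members (genes are not independent replicates, and both quantities share the DMSO library). Among genes with a mean mRNA RPKM from 0.3 to 2, the median change was 0.81 for 60 members and 0.24 for all 947 genes. From 2 to 5 it was 0.79 for 57 members and 0.19 for 1653 genes, and at 5 or more it was 0.38 for 34 members and -0.07 for 8004 genes. ZNF genes on other chromosomes had medians of 0.62, 0.57 and 0.29 in these bands, nearer to the members than to all genes. The mRNA and RF changes had a Spearman rho of 0.03 over the 151 members and -0.13 over all genes tested.

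**Figure D3:**
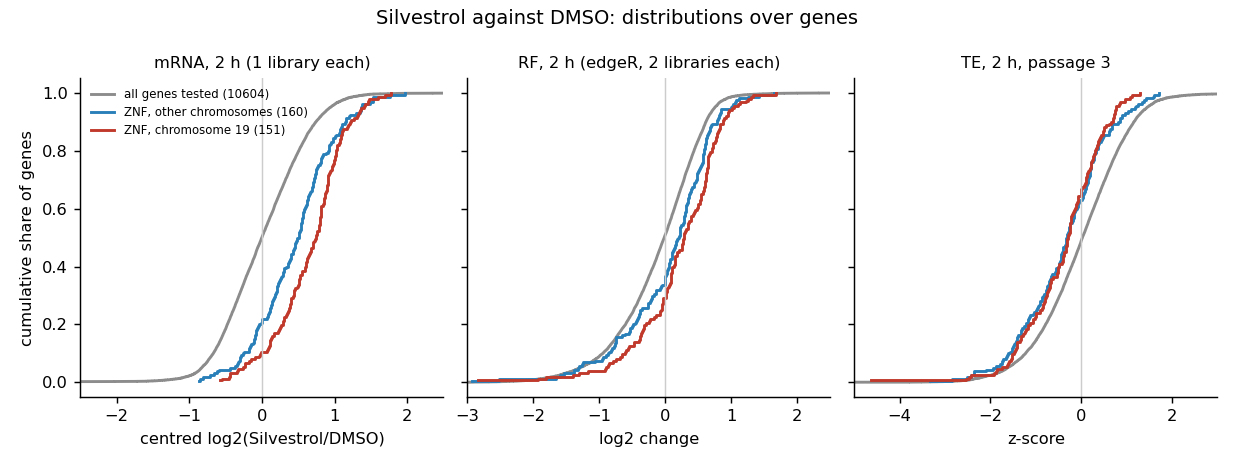
Cumulative share of genes by change with Silvestrol at 2 hours in mRNA (left), RF (middle) and translation efficiency as a z-score (right), for the 151 tested members (red), 160 ZNF genes on other chromosomes (blue) and all 10604 genes tested (grey). The red line lies to the right of the grey one for mRNA (medians of 0.74 and 0), and to the left for the z-score (-0.28 and 0.02), and 35, 4 and 41 genes lie beyond the axes of the 3 panels.

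Translation efficiency (TE) is RF RPKM over mRNA RPKM. As a z-score over all genes tested, the change in TE in passage 3 was below -1.5 in 15 members (9.93%), against 6.27% of all genes tested, and above 1.5 in 0 members, against 4.4%. The 15, named by this value, were ZNF146, ZNF528, ZNF45, ZNF260, ZNF558, ZNF266, ZNF507, ZNF699, ZNF714, ZNF570, ZNF614, ZNF470, ZNF461, ZNF350 and ZNF30. A low z-score does not by itself mean fewer footprints, since TE is also lower where mRNA is higher. With the RF libraries of passage 4 and the same mRNA libraries, 14 members were below and 3 above, against 6.69% and 4.68% of all genes tested, and ZNF146, ZNF45, ZNF528, ZNF260, ZNF558, ZNF266 and ZNF507 were below in both. ZNF146 had the lowest z-score of the members, at -4.62 in passage 3 and -3.58 in passage 4. The median member stood at -0.28 and -0.20 in passages 3 and 4. For ZNF genes on other chromosomes 20 of 160 were below -1.5 in passage 3 and the median was -0.33.

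In the edgeR model over RF and mRNA counts, 0 genes were called, members included, and at an unadjusted p under 0.05 edgeR gave 17 members lower and 0 higher, beside 1491 and 1069 of all genes. DESeq2 called 2 members lower, ZNF146 (log2 TE change -3.80 ± 0.64, adjusted p = 9.08e-07) and ZNF507 (-1.64 ± 0.43, adjusted p = 0.00469), beside 518 lower and 358 higher over all genes. Blocked by passage, the edgeR model called 27 members lower and 4 higher (17.9% and 2.65%), against 21.9% in each direction over all genes. Of these 27, 10 were also called lower in RF with the block and 17 were not called in RF. In 14 of the 27, the mRNA change was past 2-fold higher. Without the DMSO RF library of passage 3 edgeR called 6 members lower and 1 higher (6.29% and 3.78% of all genes), and without that of passage 4 it called 2 lower and 0 higher (3.57% and 0.934%). Without either Silvestrol RF library it called 0 genes. The mRNA libraries have no replicate, so the test of TE takes its spread from the RF libraries alone.

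Position along the chromosome was examined by starting a new group wherever consecutive loci began more than 1 Mb apart, which gave 15 groups. In the group from 11.6 to 12.7 Mb, which holds ZNF791, ZNF844 and ZNF439, edgeR with the block called 9 of 17 tested members higher in RF and 0 lower, and the median log2 RF change was 0.61. Over all genes tested 24.7% were called higher and 28.0% lower in this fit. In the group from 7.07 to 9.79 Mb it called 0 of 11 higher and 4 lower (ZNF266, ZNF414, ZNF558 and ZNF699), with a median of -0.25. The group from 36.7 to 38.3 Mb, which holds ZNF146 and ZNF260, had those 2 genes as its lower calls and 0 higher among 16, and its median was -0.03. These 3 groups were chosen after their values were seen. The group from 19.8 to 24.3 Mb had 7 higher and 0 lower of 18 with a median of 0.56, and the group from 44.1 to 45.6 Mb had 5 higher and 3 lower of 14 with a median of 0.61. mRNA medians were 0.82, 0.70 and 0.99 in the 3 groups named first. These 3 groups also differed in sequence, with a median of 14.0% shared 30-base windows and a 5' UTR of 145 nt in the first, 2.86% and 248.5 nt in the second, and 4.14% and 228 nt in the third. The part of these features in the difference between groups was not tested. In the last group, from 56.0 to 59.0 Mb, edgeR with the block called 14 higher and 2 lower in RF of 38 tested, with a median RF change of 0.34. There 1 member was past 2-fold in mRNA, against 3.95% of all genes tested, and the median mRNA change was also 0.34.

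**Figure D4:**
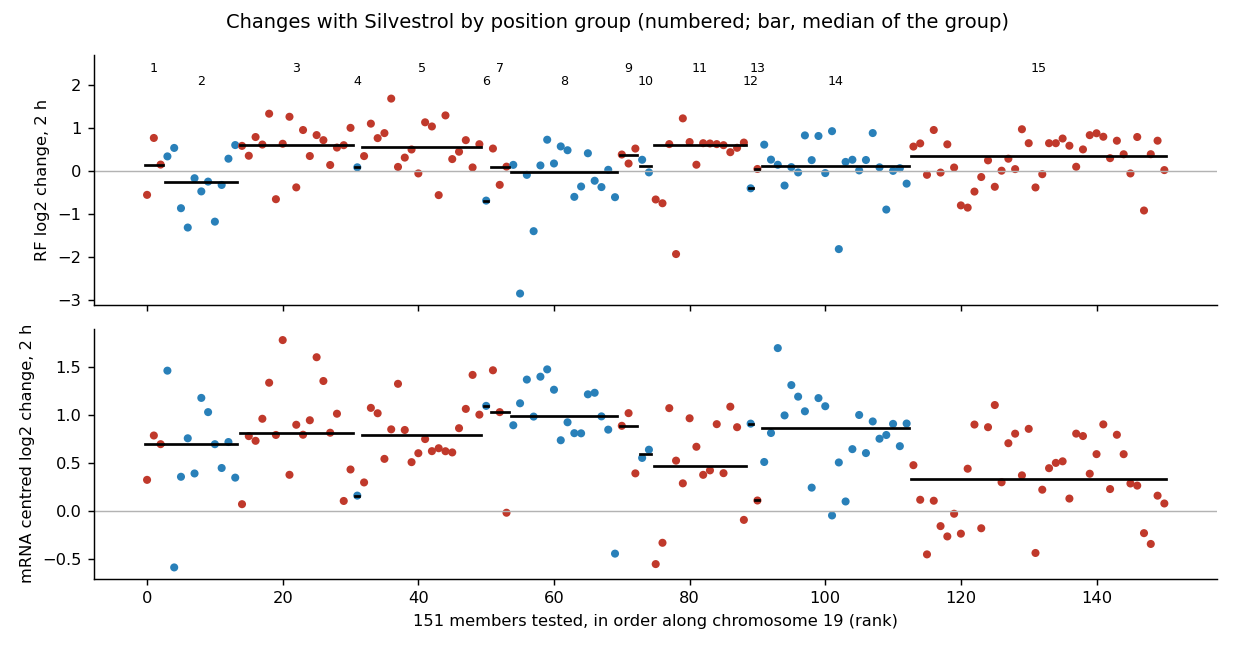
Log2 RF change (top, edgeR) and centred log2 mRNA change (bottom) with Silvestrol at 2 hours for the 151 tested members in their order along chromosome 19, as ranks. Colours alternate between the 15 numbered position groups and black bars are group medians, at -0.25 in RF for group 2 and 0.61 for group 3.

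Members with long annotated 5' UTRs had the lower RF and TE changes. ZNF146 has a 5' UTR of 1019 nt, ZNF45 of 1114 nt, ZNF266 of 847 nt, ZNF260 of 733 nt, ZNF558 of 688 nt and ZNF528 of 445 nt, compared with a median of 186 nt over the members. ZNF507, also below -1.5 in both passages, has 270 nt. Of the other members with low RF changes, ZNF584 has 499 nt, ZNF414 121 nt and ZNF347 91 nt. When the 149 annotated and tested members were divided into 3 classes of 5' UTR length, 12 of the 50 longest, 3 of 49 in the middle class and 0 of the 50 shortest had a z-score below -1.5. Over all annotated genes tested, divided at the same lengths, the shares were 19.1%, 5.22% and 1.02%. Median log2 RF changes of the members in these classes were -0.01, 0.41 and 0.58. Across the 149 members, 5' UTR length and z-score had a Spearman rho of -0.45, and across 9157 genes tested it was -0.53. Members with at least 1 ATG in the 5' UTR had 14 of 85 z-scores below -1.5, and those without had 1 of 64, compared with 12.2% and 2.53% of all annotated genes tested. UTR length and the number of ATGs in it go together, and the annotated 5' UTR may not be the one used in these cells. The share of 30-base windows found in other genes had a rho of 0.31 with the RF change across members and 0.02 across all genes tested.

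**Figure D5:**
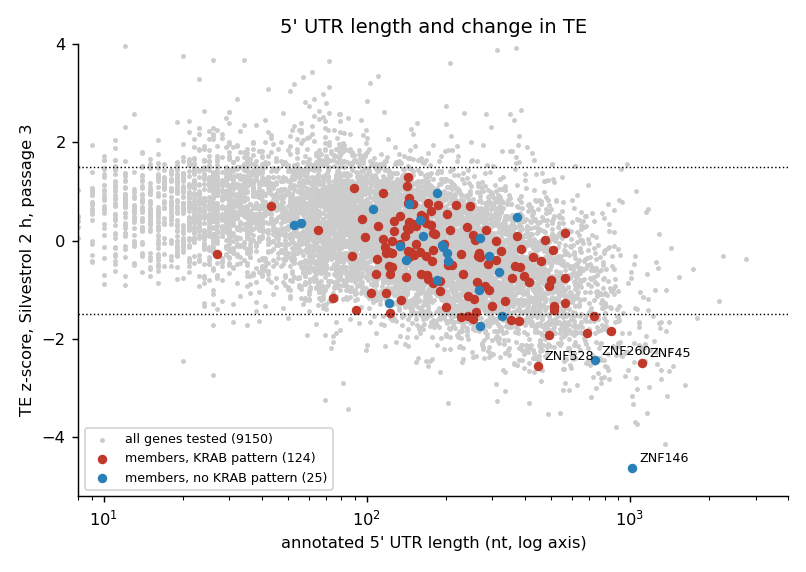
Annotated 5' UTR length (log axis) and TE z-score with Silvestrol at 2 hours in passage 3, for members with (red) and without (blue) a KRAB-A pattern and for all genes tested with a 5' UTR (grey, 9094 of 9150 within the axes). Dotted lines mark -1.5 and 1.5, and the members below -1.5 lie mostly at long 5' UTRs, with ZNF146 lowest at 1019 nt.

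The KRAB-A pattern, found in 124 of the 149, divided the members as follows. The median centred mRNA change was 0.79 with the pattern and 0.12 without, and 33 of 124 compared with 2 of 25 were past 2-fold, against 3.95% of all genes tested. DMSO mRNA levels differed as well, with medians of 1.53 and 8.63 RPKM. ZNF genes on other chromosomes had medians of 0.65 with the pattern and 0.39 without, and 13 of 52 and 12 of 106 were past 2-fold. Median TE z-scores were -0.30 with and -0.14 without the pattern on chromosome 19, and median log2 RF changes were 0.33 and 0.08. The block fit called 7 lower and 33 higher in RF among the 124 with the pattern, and 7 lower and 8 higher among the 25 without it, where all genes tested gave 28.0% lower and 24.7% higher.

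With INK128, most members could not be assessed, since 27 of 202 passed the filter among 7102 genes, and none of the 27 was past 2-fold in RF or RNA. Total RNA FPKM (the same measure for fragments) was low, with a median of 0.182 over the members with DMSO. The median log2 RNA change over all genes tested was -1.17, so changes were centred. Over all genes tested 2.04% were past 2-fold lower and 1.59% higher in RF, and 0.31% and 5.11% in RNA. The TE z-score was below -1.5 in 3 members, ZNF581, ZNF296 and ZNF358, and above 1.5 in 0, against 5.58% and 1.75% of all genes tested. ZNF581 went from 7.08 to 4.38 RF FPKM, ZNF296 from 4.93 to 3.45 and ZNF358 from 3.96 to 2.78, and these were also the 3 lowest centred RF changes, at -0.71, -0.53 and -0.52. In the Silvestrol experiment these 3 genes were, with ZNF844, the 4 members called higher in TE by edgeR with the block. With the length correction added to the block, ZNF296 and ZNF844 lost that call (edgeR adjusted p of 0.0608 and 0.0764). The highest centred RF changes with INK128 were 0.24 for ZNF175, 0.20 for ZNF626 and 0.14 for ZNF428. ZNF146 had 11.0 RF FPKM with DMSO and 10.7 with INK128, and a z-score of 0.11. The 2 experiments have separate control libraries.

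Among 36 genes of the KRAB silencing pathway, 33 were tested, and edgeR called 3 lower in RF (RBBP7, MORC2 and MTA2) and 1 higher (MORC3), with 7.33% lower and 1.93% higher over all genes tested. TRIM28, the corepressor that KRAB domains bind, had 447 and 360 RF RPKM with DMSO and 239 and 225 with Silvestrol at 2 hours in passages 3 and 4. Both Silvestrol values lay below both DMSO values, and the log2 change was -0.67 ± 0.16, which did not pass without the block (edgeR adjusted p = 0.0633) and passed with it (edgeR adjusted p = 2.89e-14). Its mRNA was also lower, at 277 RPKM with DMSO and 211 with Silvestrol, and the TE z-score was -0.20. SETDB1, which methylates histone H3, had 11.6 and 11.7 with DMSO and 10.8 and 11.4 with Silvestrol, a log2 change of 0.05 ± 0.16 after scaling (edgeR adjusted p = 0.853). RBBP7, a histone chaperone, fell by 1.88 ± 0.12 on the log2 scale (edgeR adjusted p = 0.0166), MORC2, a HUSH-associated ATPase, by 2.07 ± 0.25 (edgeR adjusted p = 0.0203) and MTA2, a subunit of the NuRD complex, by 1.17 ± 0.16 (edgeR adjusted p = 0.0227). MORC3 rose by 0.78 ± 0.13 (edgeR adjusted p = 0.0317). With the block the pathway had 10 lower and 7 higher, against 28.0% and 24.7% of all genes tested, so the list's shares were near those of all genes in both fits. Of 17 related zinc finger genes of chromosome 19 with other symbols (such as ZFP28, ZFP82 and MZF1), 9 were tested and 0 were called by edgeR. At an unadjusted p under 0.05 edgeR gave 0 lower and 2 higher, against 18.5% and 12.2% of all genes tested, and DESeq2 called 0, against 9.45% and 5.22%. With the block edgeR called 1 lower (MZF1) and 5 higher, and the median log2 RF change of the 9 was 0.50.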

How the data were processed

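Libraries were assigned to groups from the sample labels. The members and lists were chosen with earlier results of these data known. For the Silvestrol experiment the authors aligned reads to hg19 and canonical transcripts with Bowtie (up to 16 alignments and 2 mismatches) and the values they deposited are counts of reads that map uniquely to 1 transcript, and an RPKM value per library that leaves out positions with non-unique reads. The labels' processing notes also list Bowtie2 and CASAVA 1.8.1. The table that the authors deposited for INK128 holds FPKM values without counts, and the program that made them is not given in the sources used here. The deposited TE, log2 change, z-score and mean columns were not used. There were 0 columns without a sample, the control mRNA column being assigned by elimination. Repeated lines of the Silvestrol table were dropped (38897 lines, 25758 distinct). Where a symbol still had several entries, in either table, only the entry with the highest mean RF value was kept.

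Genes tested had an RPKM above 0 in the 4 passage 3 libraries at 2 hours, and mean RPKM values no lower than 1 in RF and 0.3 in mRNA, with the same minimums for FPKM. The quasi-likelihood test of edgeR 4.0.16 (R 4.3.3, TMM scaling) was applied to RF counts, with 2 libraries per treatment, and to TE as an assay by treatment interaction over 6 libraries. P-values were adjusted over all genes (Benjamini-Hochberg, threshold 0.05), DESeq2 1.42.0 was an alternative, and scripts were tested on simulated data. Ratios of single libraries were log2 values without a pseudocount, called past 1 after centring on the median gene. Passage numbers are in the labels and are shared by DMSO and Silvestrol. Deviations from the group means correlated between treatments (r = 0.754, 10604 genes), and the samples were therefore treated as paired by passage in alternative fits. The labels call the passage 4 libraries biological replicates. In fits without the block, p-values measure the spread between the 2 passages. The block takes the passage difference out, so p-values of blocked fits rest only on the spread that is left after it.

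Genes named by rule are ZNF146 and every member that edgeR called without the block. Among members moving the same way in both passages, the 10 lowest and 5 highest RF changes are named. The rule also names the 5 highest RF levels, the 3 lowest and 3 highest INK128 RF changes, and the called genes, TRIM28 and SETDB1 of the pathway list. Other members are named for their 1 hour, mRNA or TE values, as said where they appear. KRAB-A and finger patterns, 5' UTRs and shared 30-base windows were computed from GENCODE 44 lifted to GRCh37, with 1 transcript per gene, and 86.4% of genes tested were annotated. In genes without a ZNF symbol the KRAB-A pattern occurred in 0.113%.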

Additional observations from a re-analysis of the deposited data

How the results depend on the processing

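With the passage as a replicate block, the members called in RF went from 3 to 55, those called in TE from 0 to 31, and the median RF change from 0.28 to 0.31. The block together with a correction for counted length (offset), an alternative chosen after seeing the data, gave 45 (16 lower and 29 higher), 31 (29 lower and 2 higher, from 27 and 4) and 0.20. Shares over all genes are not given for this combined fit. The offset alone moved the RF shares of all genes tested from 7.33% lower and 1.93% higher to 9.55% and 1.51%. The offset alone gave a median of 0.15 and moved the split of RF calls from 1 lower and 2 higher to 3 and 1. DESeq2 called 5 members in RF (1 lower and 4 higher, against 9.45% and 5.22% of all genes tested) and 2 in TE, with a median RF change of 0.31, and RLE size factors gave 0.32. Leaving out 1 library gave 0 to 2 RF calls, 0 to 7 TE calls and medians from 0.19 to 0.35. Here the lone library is assumed to vary like the other group. The single-library counts depended on low values. A pseudocount of 0.5 gave 8 members past the z-score threshold (15 without), 5 past 2-fold at 1 hour (9) and 16 in mRNA (35), and a minimum mean RPKM of 5 gave 2, 2 and 3. No shares over all genes are given at these settings, so these counts describe the members alone. The z-score count was 17 with the RFs of passage 4 in place of passage 3. With INK128 and no minimum FPKM, 5 of 202 members were past 2-fold in RF (4 lower and 1 higher, against 1.72% and 1.68% of all genes). In RNA, 11 were (10 and 1, against 1.43% and 4.87%). Past the z-score threshold were 26 (11 and 15, against 5.61% and 3.72%, where the filtered genes gave 3 and 0). With the filter, uncentred RNA gave 18, but the median log2 change of all genes tested was then itself past 2-fold, at -1.17. The median and MAD gave 7 in place of 3, and no share over all genes is given for that setting. No member had a mean FPKM of 5 in both assays, so that alternative gave no value. The causes were not tested beyond what each alternative's construction shows.

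Of the other values for single named genes, 460 kept their direction and their side of the threshold, 65 passed it only under an alternative, 12 lost it and 13 changed sign. Of the 65, 28 came with the block alone and 27 with the block and the length offset together, and the block ended no call. Sign changes were in values near 0. The RF change of ZNF460 was -0.11 with the length offset, with or without the block, and ran from -0.078 to 0.076 when 1 library was left out. That of ZNF580 was 0.0069 with DESeq2 and 0.0042 with RLE, and ran from -0.46 to 0.64. That of ZNF626 was 0.0019 with DESeq2 and ran from -0.42 to 0.33. TE changes without 1 library ran from -0.19 to 0.39 for ZNF439 and from -0.28 to 0.84 for ZNF580. Depth limits the members most in passage 4, and reads shared between paralogs were not counted.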
